A study of Homo sapiens with 12 samples.

Results

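The 50 genes described here have roles from the G2 phase of the cell cycle to the end of cell division. They were followed in AC16 cells through 3 interferon regimens and a vehicle control. They were chosen by gene symbol from textbook roles in mitotic entry, the spindle checkpoint, chromosome separation, the kinetochore, the spindle and cytokinesis. This choice was made with earlier results of these data known. All 50 were found, with 1 identifier each, among the 60649 gene identifiers of the count table, and all 50 stood among the 18119 genes with enough counts to be tested.

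Polyadenylated RNA was sequenced from AC16 cells of wild-type genotype after 4 regimens, 3 of them with recombinant human interferon alpha-2a, a type I interferon that signals through its receptor to STAT transcription factors. In the repeat group the cells had a 24 h pulse of 1000 U/mL, 4 days without cytokine and a second 24 h pulse. The recovery group had 1 pulse of 24 h followed by 5 days without cytokine. The acute group was harvested at the end of a single 24 h pulse, and the vehicle group had PBS and is labelled as harvested at 24 h. Each group had 3 libraries, described as independent biological replicates, and the interferon dose was the same throughout. The labels place the recovery harvest at day 6 and the repeat harvest at day 7, although the stated steps of the repeat regimen add up to the same length as those of the recovery regimen. The treatment protocol states instead that vehicle was given over the same lengths as the regimens. By the labels no vehicle library was kept in culture as long as the recovery and repeat libraries. A comparison of either of these with acute or vehicle is then also one between times in culture. The parts of time and regimen in it cannot be told apart. Repeat and recovery also differ in labelled harvest day, and in days without cytokine, 4 before the second pulse and 5 in recovery. In their comparison the parts of these and of the second pulse cannot be told apart either. AC16 is a single human line made by fusing adult ventricular cells with SV40-transformed fibroblasts that lack mitochondrial DNA. It divides in culture, unlike adult cardiomyocytes.

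A cell enters mitosis when cyclin A and cyclin B activate the kinase CDK1, which the CDC25 phosphatases release from inhibitory phosphorylation, with PLK1 and Aurora kinases acting beside it. Kinetochores then attach chromosomes to spindle microtubules, the spindle assembly checkpoint holds back the anaphase-promoting complex until they are attached, and separase, the central spindle and the cytokinetic ring complete the division. Many of these genes peak together in G2 and mitosis through a promoter element called the cell cycle homology region, bound by the MuvB complex with B-MYB and FOXM1, often beside CCAAT boxes bound by NF-Y. In RNA from whole cultures, fewer cells in G2 and mitosis and less RNA per such cell cannot be told apart.

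The 12 libraries held between 39941319 and 62281900 counts assigned to genes. The 5 interferon-response genes used as a check of the labels (ISG15, IFIT1, MX1, IFI44L and OAS1) summed to between 2490 and 2540 CPM (counts per 1000000 counts of the library) in repeat libraries, 119 and 123 in recovery, 2380 and 2430 in acute, and 79.1 and 86.5 in vehicle. Cardiomyocyte markers were near absent: 2 of 15 had enough counts for the test, MYL7 and MYBPC3 were at 0 in every library, and the list summed to between 3.86 and 4.42 CPM in repeat libraries, 2.84 and 3.97 in recovery, 2.71 and 2.85 in acute, and 2.13 and 2.49 in vehicle. All 10 fibroblast markers were measured, with sums between 19100 and 19800 CPM in repeat libraries, 18700 and 18800 in recovery, 20500 and 21100 in acute, and 18900 and 19800 in vehicle. In each pulse 6 of these 10 fell, among them COL1A1, PDGFRB, DCN and LUM, and FN1 and VIM rose, with log2 fold changes from -0.95 to 0.37 in acute against vehicle cells and from -0.49 to 0.26 in repeat against recovery cells. Of all genes tested, 21.5% and 20.5% were called lower in these comparisons. In recovery against vehicle cells 7 of the 10 were lower and 1 higher, against 2.91% and 3.03% of all genes. In repeat against acute cells 6 were lower and 1 higher, against 2.43% and 1.77%. Of 5 leukocyte markers CD3E was at 0 in every library, and the list summed to between 236 and 246 CPM in repeat libraries, 113 and 124 in recovery, 224 and 239 in acute, and 95.2 and 96.2 in vehicle, nearly all of it CD68, a lysosomal protein. The 5 endothelial markers summed to between 11 and 13.9 CPM over the 12 libraries. The part of these marker levels in the results below was not tested. The repeat libraries differed more among themselves than the libraries of any other group did, and MKI67 was lowest in repeat replicate 2.

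The promoters of 41 of the 50 genes were matched by symbol in RefSeq (GRCh38.p14), with 51 promoter windows in all, each 250 bases before to 50 bases after an annotated start. The cell cycle homology region, searched as TTTGAA or TTTAAA on both strands, stood in 39 of the 51 windows (76.5%), against 24.0% of all 35116 promoter windows. Within 50 bases of the start it stood in 32 windows (62.7%), against 7.6% of all. CCAAT, on both strands, stood in 39 windows (76.5%), against 34.6% of all, and both motifs together stood in 60.8%, against 9.3% of all. The interferon element GAAANNGAA, on both strands, stood in 3 windows (5.9%), against 8.1% of all. Over the 17017 windows of genes tested, the homology region stood in 17.5%, and within 50 bases of the start in 5.1%. In the same windows CCAAT stood in 34.6%, both motifs in 6.8% and the interferon element in 6.8%. A match describes the letters in the window and does not show binding. The windows of 5 genes are shown, chosen after their values were seen: KIF20A, TOP2A, PLK1 and CCNB1, which are described below with lower RNA after both pulses, and BUB1, whose fall was not called. Capitals mark the cell cycle homology region (TTTGAA or TTTAAA, or TTCAAA where it lies on the other strand) and the CCAAT box (CCAAT, or ATTGG on the other strand). Each sequence runs 5′ to 3′ on the gene's own strand. The windows lie at chr5:138178862-138179161 (plus strand) for KIF20A, chr17:40417847-40418146 (minus strand) for TOP2A, chr16:23678639-23678938 (plus strand) for PLK1, chr5:69166900-69167199 (plus strand) for CCNB1 and chr2:110678014-110678313 (minus strand) for BUB1.
KIF20A: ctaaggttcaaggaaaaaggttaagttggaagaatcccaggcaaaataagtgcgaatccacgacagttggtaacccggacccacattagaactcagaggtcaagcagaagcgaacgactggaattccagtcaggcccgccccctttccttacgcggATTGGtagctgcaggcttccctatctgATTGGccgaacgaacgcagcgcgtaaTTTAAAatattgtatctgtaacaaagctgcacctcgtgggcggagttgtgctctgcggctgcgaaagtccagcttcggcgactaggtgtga
TOP2A: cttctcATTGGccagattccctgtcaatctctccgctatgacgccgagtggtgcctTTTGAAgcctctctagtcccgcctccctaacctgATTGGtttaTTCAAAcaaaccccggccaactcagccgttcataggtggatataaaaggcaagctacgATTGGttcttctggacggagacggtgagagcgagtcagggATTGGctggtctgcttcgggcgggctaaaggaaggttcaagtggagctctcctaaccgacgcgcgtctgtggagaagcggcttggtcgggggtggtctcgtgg
PLK1: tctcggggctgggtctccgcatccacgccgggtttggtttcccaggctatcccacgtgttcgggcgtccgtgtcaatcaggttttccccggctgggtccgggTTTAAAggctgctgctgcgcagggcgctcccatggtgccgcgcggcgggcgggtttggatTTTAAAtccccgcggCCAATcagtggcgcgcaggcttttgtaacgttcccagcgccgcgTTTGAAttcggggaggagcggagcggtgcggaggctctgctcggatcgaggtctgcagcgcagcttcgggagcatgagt
CCNB1: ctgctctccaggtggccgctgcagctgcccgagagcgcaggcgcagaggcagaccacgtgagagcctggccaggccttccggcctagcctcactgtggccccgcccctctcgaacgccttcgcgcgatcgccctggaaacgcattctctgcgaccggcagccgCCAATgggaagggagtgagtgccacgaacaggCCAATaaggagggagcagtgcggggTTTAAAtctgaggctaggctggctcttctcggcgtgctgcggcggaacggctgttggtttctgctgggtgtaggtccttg
BUB1: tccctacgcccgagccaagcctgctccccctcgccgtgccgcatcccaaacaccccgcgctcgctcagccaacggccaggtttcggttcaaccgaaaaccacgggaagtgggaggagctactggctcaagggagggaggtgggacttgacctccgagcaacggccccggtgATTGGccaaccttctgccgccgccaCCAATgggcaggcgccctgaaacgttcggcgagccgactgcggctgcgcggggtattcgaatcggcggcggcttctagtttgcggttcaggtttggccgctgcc

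These windows differed in the number of marked motifs. The TOP2A promoter held 2 cell cycle homology regions and 4 CCAAT boxes, that of PLK1 held 3 and 1, and those of KIF20A and CCNB1 each held 1 and 2. The BUB1 promoter held 2 CCAAT boxes and no match to TTTGAA or TTTAAA, the only forms of the cell cycle homology region searched. NEK2, SPC24, AURKB, CCNA2 and CKAP2, also without a match to these letters, fell in both pulses. ESPL1 and SPC25, with a match, were not called in either. The part of the element in the falls was not tested, and genes without a matched promoter were not searched. The median log2 fold change in acute against vehicle cells was -0.22 over the 35 genes with a match and -0.19 over the 6 without, and in repeat against recovery cells it was -0.22 and -0.18.

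The genes were abundant in every group. Per length, PRC1, which bundles the microtubules of the central spindle, had the highest level in vehicle cells, at a mean of 505 TPM (transcripts scaled per library and per gene length), followed by the cytokinesis scaffold ANLN at 410.4 TPM and PLK1 at 273 TPM. The lowest were the kinesin KIF18A at 11.6 TPM and the phosphatase CDC25C at 12.4 TPM. Summed over the 50 genes, the level was 8969.6 ± 63.2 CPM in repeat cells, 10735 ± 15.6 in recovery, 8983 ± 78.8 in acute and 10557 ± 63.7 in vehicle (SD, n = 3 each). All 6 libraries taken at the end of a pulse lay below all 6 others. The summed level fell by 14.9% in acute against vehicle cells and by 16.4% in repeat against recovery cells.

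**Figure D1:**
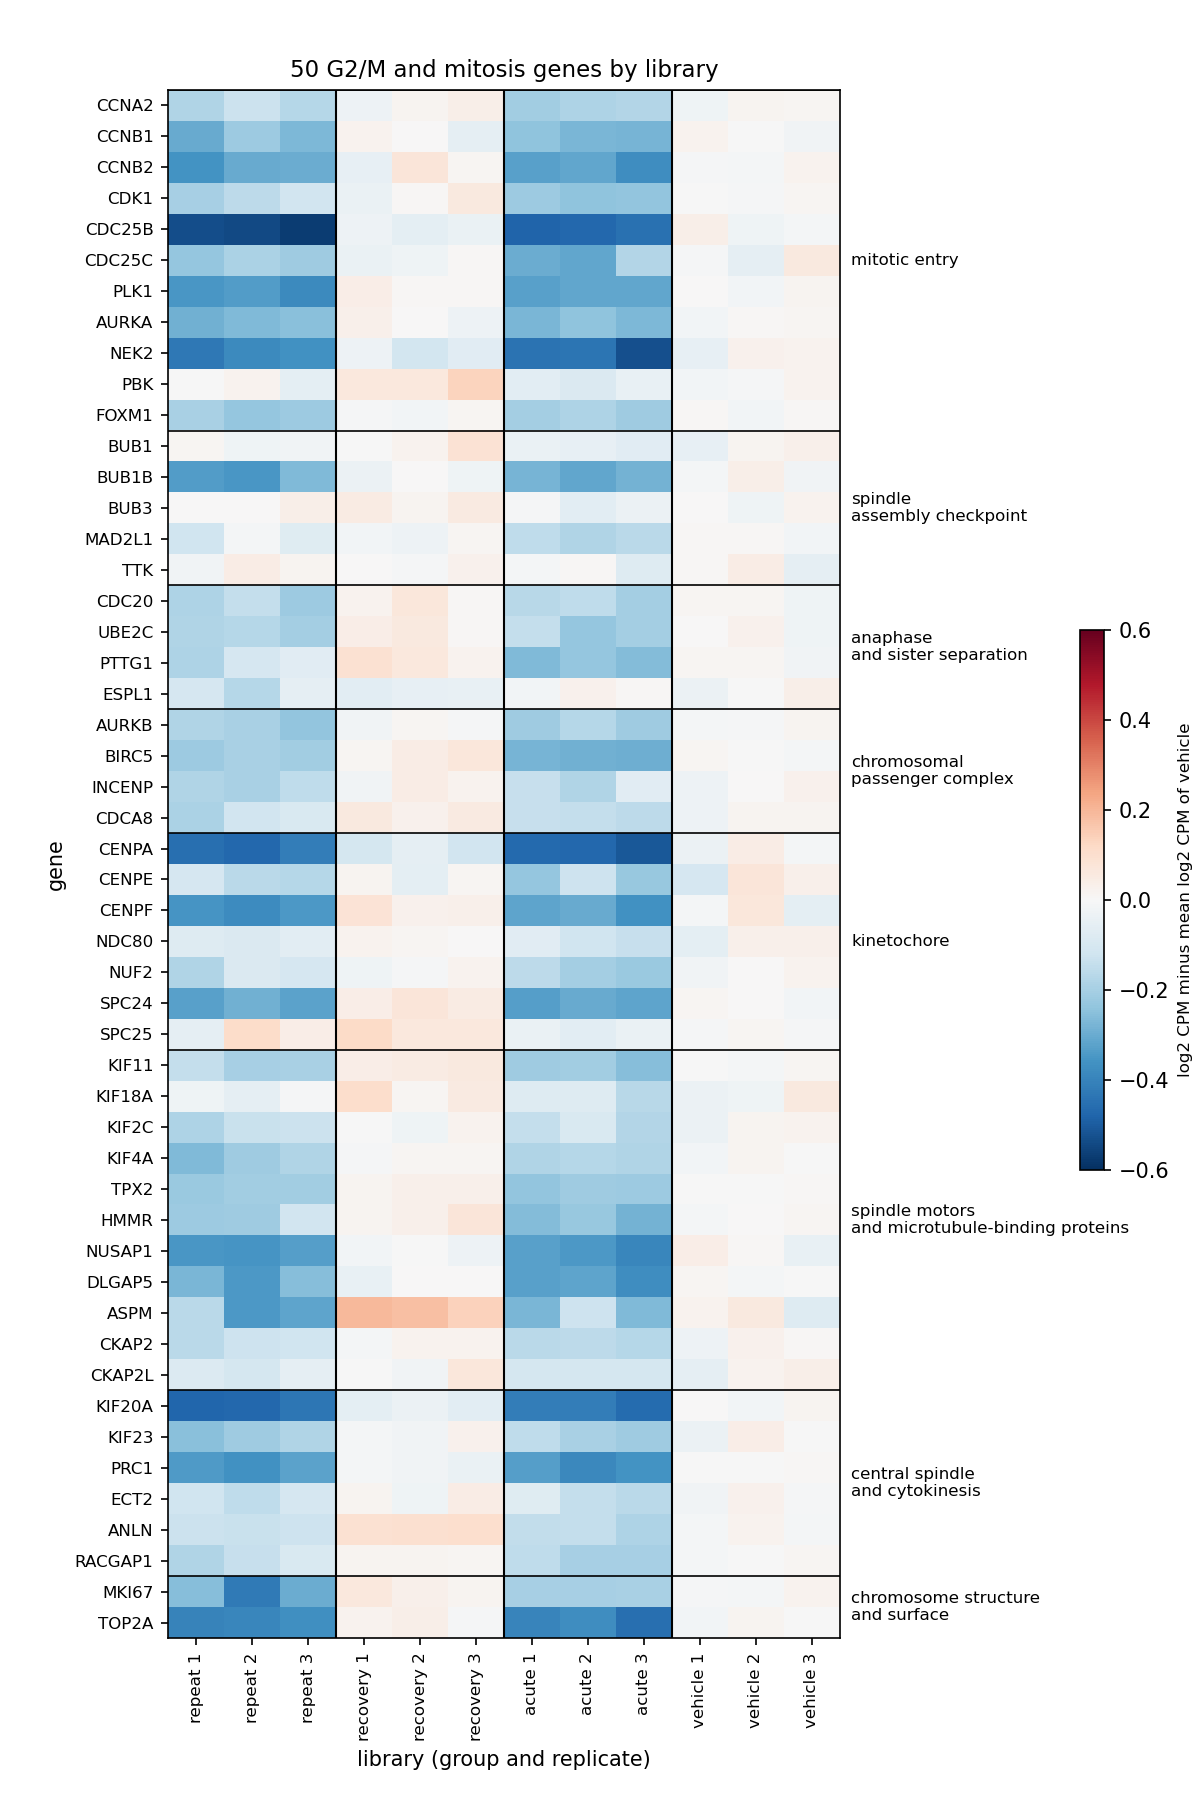
Heat map of the 50 genes (rows, by role) in the 12 libraries (columns); colour gives log2 CPM minus the mean log2 CPM of the vehicle libraries, from -0.6 (blue) to 0.6 (red). The repeat and acute columns are blue for most genes, while the recovery columns are close to the vehicle columns; BUB1, BUB3, TTK and ESPL1 are pale throughout.

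At the end of the first pulse, 44 of the 50 genes fell in acute against vehicle cells, none rose, and 6 did not pass the test (edgeR quasi-likelihood test at a threshold of 0.05, adjusted by Benjamini-Hochberg across 18119 genes). At an unadjusted p under 0.05 the count of higher genes was also 0, as it was with DESeq2 and with limma on log2 TPM. Of all genes tested, 21.5% were called lower in this comparison. The median log2 fold change of the 50 was -0.20, with a range from -0.48 to 0.00, against a median of 0.00 over all genes tested. For 46 genes every acute library lay below every vehicle library, as it did for 26.3% of all genes. The falls were small: 11 of the 50 were lower by more than 1.2-fold when that fold was tested itself (edgeR glmTreat), against 5.3% of all genes. The count of lower genes was 32 with limma on log2 TPM and 35 with a gene length offset in edgeR. Among all 18119 genes, 1801 were called lower with limma on log2(TPM + 0.1) and 2142 with the offset, against 3889 in the main edgeR test. Of the 44, those not called on either of these scales were CDC25C, CENPE, CKAP2L, ECT2, KIF18A, KIF2C, MAD2L1, NDC80 and NUF2.

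The second pulse was measured in 6 other libraries. In repeat against recovery cells, 43 of the 50 genes fell, none rose and 7 did not pass the test (edgeR), against 20.5% of all genes called lower. The count of higher genes was 0 at an unadjusted p under 0.05, with DESeq2 and with limma on log2 TPM as well. The median log2 fold change was -0.21, with a range from -0.51 to 0.01. For 44 genes every repeat library lay below every recovery library, against 24.2% of all genes. The tested fold exceeded 1.2 downward for 12 genes, against 4.21% of all. Over both pulses, 40 of the 50 genes had all 6 libraries from the end of a pulse below all 6 of the others, against 15.9% of all genes tested. The count of lower genes was again 32 with log2 TPM and 35 with the length offset. Among all genes tested, 1634 were called lower with log2(TPM + 0.1) and 1853 with the offset, against 3722 in the main edgeR test. Of the 43, CDC25C, CENPE, CKAP2L, ECT2, KIF2C, NDC80, NUF2 and PBK were not called on either scale. The 10 genes that did not separate the libraries of both pulses from the rest were PBK, BUB1, BUB3, MAD2L1, TTK, ESPL1, CENPE, SPC25, KIF18A and CKAP2L.

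Genes of mitotic entry fell in 10 of 11 cases in the first pulse, with a median log2 fold change of -0.26, and in 11 of 11 in the second, with a median of -0.25. CCNB1, the cyclin that activates CDK1 at mitotic entry, had 194, 189.8 and 189 CPM in acute libraries, against 233, 229 and 227 CPM in vehicle libraries. In the later comparison CCNB1 had 186, 198 and 191 CPM in repeat libraries, against 233, 230.4 and 222 CPM in recovery libraries. The groups of each pair did not overlap, and the log2 fold changes were -0.27 ± 0.025 (SE, edgeR adjusted p = 6.06e-10) for acute and -0.25 ± 0.025 (edgeR adjusted p = 1.51e-09) for repeat.

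CCNA2, a cyclin of S phase and G2, had 138, 140.0 and 141 CPM in acute against 157, 161 and 160.4 CPM in vehicle libraries. Its repeat libraries had 141, 146 and 141 CPM, against 156, 161 and 163 CPM in recovery libraries. Both sets lay apart, with log2 fold changes of -0.19 ± 0.024 and -0.17 ± 0.023 (SE). CDK1, the kinase at the centre of mitotic entry, had 118, 116 and 116 CPM in acute against 136, 136 and 138 CPM in vehicle libraries, and 119, 123 and 126 CPM in repeat against 133, 137 and 142 CPM in recovery libraries. CDK1 separated both pairs, by -0.23 ± 0.026 and -0.17 ± 0.026 on the log2 scale (edgeR adjusted p = 2.74e-08 and 5.84e-06). With log2 TPM these 2 falls of CDK1 were -0.18 and -0.19 and were not called.

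PLK1, a kinase of centrosome maturation, spindle assembly and mitotic exit, had 271, 274 and 273 CPM in acute libraries, against 339.7, 335 and 343 CPM in vehicle libraries. After the second pulse PLK1 had 266, 269 and 260.0 CPM in repeat libraries, against 349, 341 and 341 CPM in recovery libraries. All acute and repeat values lay below all vehicle and recovery values, with log2 fold changes of -0.32 ± 0.021 and -0.37 ± 0.021 (edgeR adjusted p = 4.60e-13 and 1.16e-14). CDC25B, a phosphatase that activates CDK1, had 193, 194 and 198 CPM in acute against 276, 264 and 267 CPM in vehicle libraries, and 186, 185 and 181 CPM in repeat against 264, 259 and 262 CPM in recovery libraries. It had the largest fall of the 50 genes in the second pulse, -0.51 ± 0.022 (edgeR adjusted p = 4.90e-17), after -0.47 ± 0.022 in the first.

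FOXM1, a transcription factor of G2 and mitosis genes, had 321, 326 and 320.0 CPM in acute against 373, 366 and 373 CPM in vehicle libraries. Its values were 324, 316 and 318 CPM in repeat against 369, 367 and 373 CPM in recovery libraries. The pairs did not overlap, and the changes were -0.20 ± 0.020 and -0.21 ± 0.020 (log2, SE). The centrosome kinase NEK2 showed larger log2 changes, -0.47 ± 0.031 in the first pulse and -0.32 ± 0.030 in the second. PBK, a kinase of mitotic cells, was the member of this group that did not pass in the first pulse, at -0.06 ± 0.034 (edgeR adjusted p = 0.129), except with upper quartile scaling (adjusted p = 0.0306). In the second pulse its value was -0.10 ± 0.033 (edgeR adjusted p = 0.0153), and this call was lost without recovery replicate 3 (adjusted p = 0.109), without repeat replicate 3 (adjusted p = 0.0853), with log2 TPM and with the length offset.

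The spindle assembly checkpoint genes had the median closest to zero of the 8 roles in each pulse. In the first pulse 2 of these 5 genes fell, with a median log2 fold change of -0.05, and in the second pulse 1 of 5 fell, also with a median of -0.05. BUB1B, the checkpoint protein BubR1, fell in both, by 0.29 and by 0.30 on the log2 scale. BUB1, a kinase that marks centromeric chromatin and recruits checkpoint proteins, had 122, 121 and 119.8 CPM in acute libraries, against 121, 127 and 128 CPM in vehicle libraries, and 127, 123 and 124 CPM in repeat against 125, 128 and 133 CPM in recovery libraries. The BUB1 groups overlapped in both pairs, and its log2 fold changes of -0.05 ± 0.026 and -0.05 ± 0.026 did not pass (edgeR adjusted p = 0.11 and 0.157). Leaving out vehicle replicate 1 brought BUB1 past the threshold in the first pulse (-0.08, adjusted p = 0.0302), and so did upper quartile scaling in both pulses (adjusted p = 0.0154 and 0.0299).

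TTK, the kinase MPS1 that starts the checkpoint signal, had 60.3, 61.1 and 57.7 CPM in acute libraries, against 61.1, 62.8 and 58.6 CPM in vehicle libraries. In the second pulse TTK had 59.98, 62.6 and 61.5 CPM in repeat libraries, against 60.96, 60.4 and 61.9 CPM in recovery libraries. Its groups overlapped in both pairs, with log2 fold changes of -0.03 ± 0.031 and 0.01 ± 0.031. BUB3, which carries BUB1 and BubR1 to kinetochores, changed by -0.04 ± 0.022 and -0.03 ± 0.022 and did not pass in either pulse, except in the first with upper quartile scaling (adjusted p = 0.0270). MAD2L1, the checkpoint protein that binds CDC20, differed by -0.16 ± 0.029 in the first pulse (edgeR adjusted p = 3.69e-05) but by 0.00 on the log2 TPM scale. In the second pulse MAD2L1 did not pass, at -0.06 ± 0.029, except without repeat replicate 2 (-0.09, adjusted p = 0.0243) and with upper quartile scaling (adjusted p = 0.0297).

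**Figure D2:**
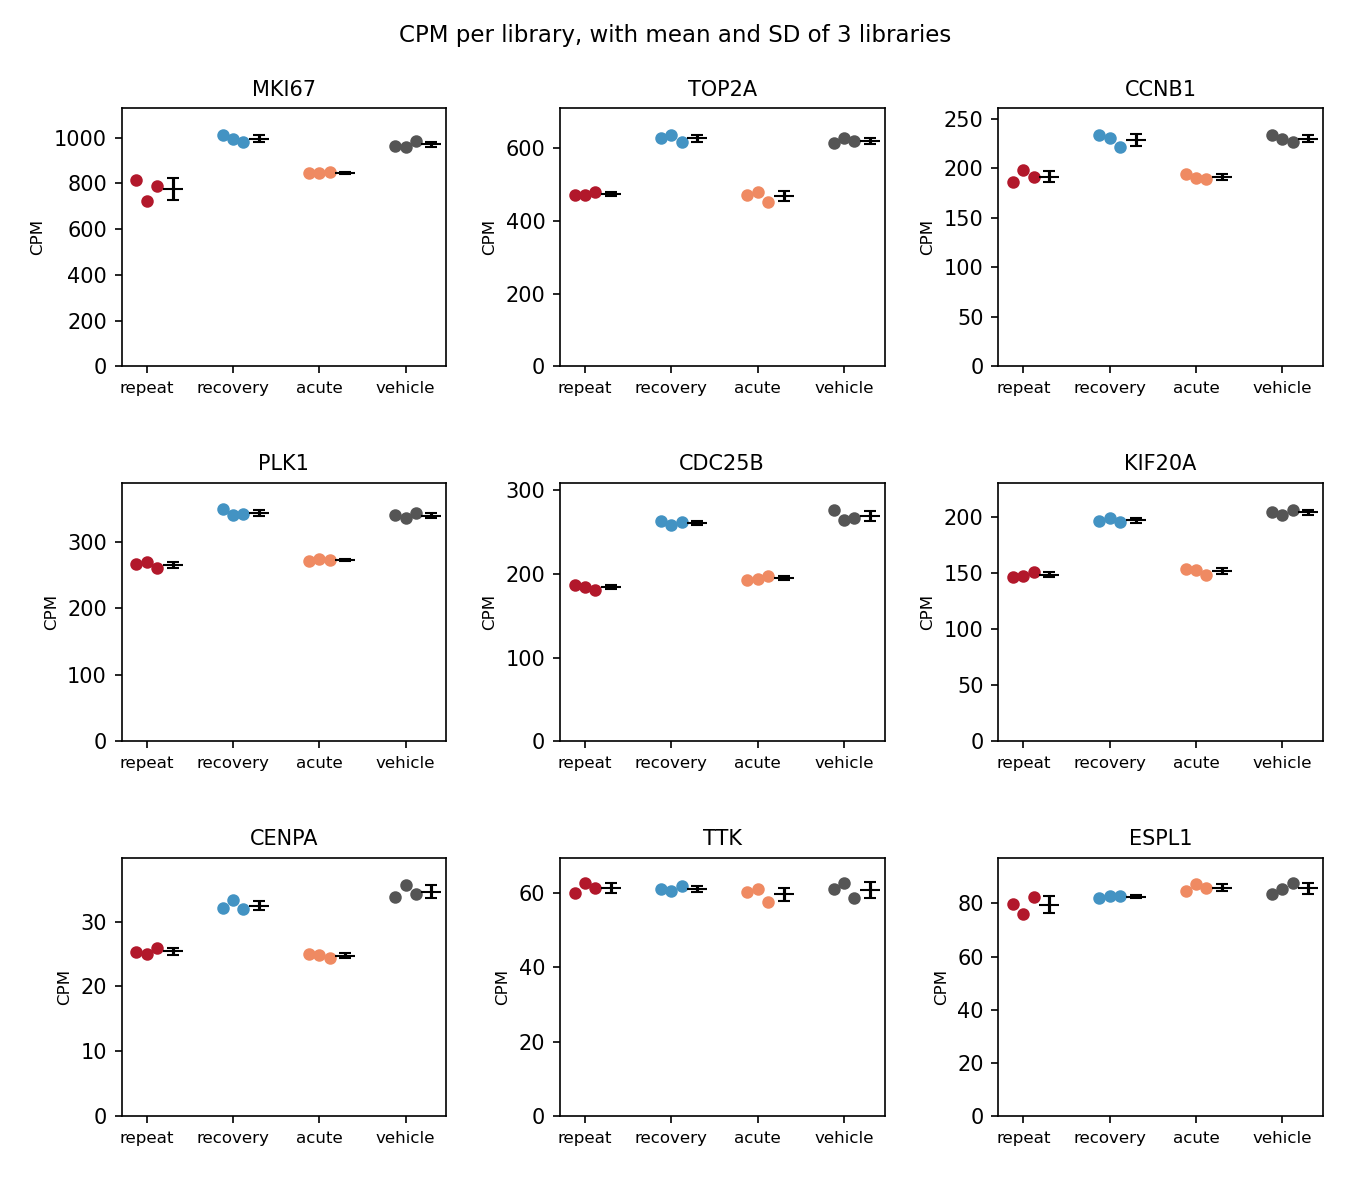
CPM of 9 genes in each library (points) with the mean and SD of the 3 libraries of each group (black), on axes that start at 0. The repeat and acute libraries lie below the recovery and vehicle libraries for MKI67, TOP2A, CCNB1, PLK1, CDC25B, KIF20A and CENPA, while TTK and ESPL1 stay within narrow ranges.

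Among the genes of anaphase and sister chromatid separation, 3 of 4 fell in each pulse. CDC20, which activates the anaphase-promoting complex, had 232, 234 and 226 CPM in acute libraries, against 262, 263 and 256 CPM in vehicle libraries, and 229, 236 and 224 CPM in repeat against 264, 273 and 261 CPM in recovery libraries. Neither pair overlapped, and the log2 fold changes were -0.18 ± 0.024 and -0.21 ± 0.024 (edgeR adjusted p = 5.40e-07 and 1.96e-08). Securin, encoded by PTTG1, fell in both pulses, with -0.25 ± 0.028 and -0.18 ± 0.028 on the log2 scale. ESPL1, the separase that securin holds inactive, had 84.6, 87.3 and 85.95 CPM in acute libraries, against 83.7, 85.4 and 87.9 CPM in vehicle libraries. In the second pulse ESPL1 had 79.9, 76.2 and 82.5 CPM in repeat libraries, against 81.9, 82.8 and 82.99 CPM in recovery libraries. Its groups overlapped in both pairs and neither value passed, at 0.00 ± 0.029 and -0.06 ± 0.029. The second passed without repeat replicate 3 (-0.08, adjusted p = 0.0308) and with upper quartile scaling (adjusted p = 0.0238).

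All 4 genes of the chromosomal passenger complex, which corrects wrong attachments and directs cytokinesis, fell in both pulses, with medians of -0.17 and -0.19. AURKB, its kinase, had 112, 115 and 112 CPM in acute libraries, against 128, 129 and 131 CPM in vehicle libraries. The repeat libraries had 114, 113 and 109.9 CPM of AURKB, against 127, 131 and 129 CPM in recovery libraries. The pairs were separate, with log2 fold changes of -0.20 ± 0.024 and -0.20 ± 0.023 (edgeR adjusted p = 5.89e-08 and 7.04e-08). BIRC5, the subunit survivin, showed the largest fall of the 4 in both pulses, at -0.29 ± 0.021 in the first and -0.25 in the second.

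At the kinetochore, 6 of 7 genes fell in each pulse. CENPA, the histone H3 variant that marks centromeres, had 25.1, 24.9 and 24.3 CPM in acute libraries, against 33.8, 35.7 and 34.3 CPM in vehicle libraries, and 25.3, 24.9 and 25.97 CPM in repeat against 32.1, 33.3 and 31.97 CPM in recovery libraries. The groups lay far apart relative to their spread, with log2 fold changes of -0.48 ± 0.038 and -0.36 ± 0.038 (edgeR adjusted p = 2.97e-11 and 9.08e-09). CENPF, a large protein of the outer kinetochore, had 438, 442 and 424 CPM in acute libraries, against 541, 571 and 523 CPM in vehicle libraries. Its values were 427, 419.7 and 429.7 CPM in repeat against 577, 555 and 558 CPM in recovery libraries. CENPF was lower in all 6 pulse-end libraries, with changes of -0.33 ± 0.026 and -0.40 ± 0.026 (log2, SE).

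Within the NDC80 complex, which binds microtubule ends, the subunits moved by unequal amounts. SPC24 changed by -0.32 ± 0.028 and -0.36 ± 0.028, whereas its partner SPC25 did not pass in either pulse, at -0.05 ± 0.042 and -0.05 ± 0.041. The difference between these 2 genes was not tested. CENPE, a kinesin of the kinetochore, was called lower in the second pulse at -0.13 ± 0.044 (edgeR adjusted p = 0.0285). That call was lost without recovery replicate 1, recovery replicate 3, repeat replicate 2 or repeat replicate 3 (adjusted p from 0.0881 to 0.108), and the value was 0.05 on the log2 TPM scale and 0.04 with the length offset.

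All 11 spindle motors and microtubule-binding proteins fell in the first pulse and 10 of 11 in the second, with medians of -0.22 and -0.23. TPX2, which activates Aurora A on the spindle, had 448, 456 and 453 CPM in acute libraries, against 527, 527 and 530.0 CPM in vehicle libraries, and 452, 458 and 457 CPM in repeat against 534, 539 and 539 CPM in recovery libraries. Its groups were tight and did not overlap, with log2 fold changes of -0.22 ± 0.019 and -0.24 ± 0.019 (edgeR adjusted p = 9.26e-11 and 2.54e-11). NUSAP1 and DLGAP5, which stabilise spindle microtubules, fell by 0.35 and 0.34 in the first pulse. ASPM, a protein of the spindle poles, had 220.3, 245 and 222 CPM in acute libraries, against 270.2, 277 and 253 CPM in vehicle libraries, and 239, 210.1 and 214 CPM in repeat against 305, 302 and 293 CPM in recovery libraries. The ASPM groups did not overlap, and its standard errors were the widest of the 11, at -0.22 ± 0.060 and -0.44 ± 0.060 (edgeR adjusted p = 0.0155 and 2.74e-04). The first of these calls was lost without vehicle replicate 1, vehicle replicate 2, acute replicate 1 or acute replicate 3 (adjusted p from 0.0513 to 0.0589). It was also not called by limma on log2(TPM + 0.1), at -0.18 (adjusted p = 0.0518). KIF18A, a kinesin that limits microtubule length, did not pass in the second pulse (edgeR adjusted p = 0.0521) except with upper quartile scaling, with DESeq2 size factors and without vehicle replicate 3, acute replicate 3 or recovery replicate 2 (adjusted p from 0.0129 to 0.0476). Its first value, -0.11 ± 0.036, was not called without vehicle replicate 3 or acute replicate 3 (adjusted p = 0.117 and 0.118).

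Each of the 6 genes of the central spindle and cytokinesis fell in both pulses, with medians of -0.18 and -0.22. KIF20A, a kinesin that carries the passenger complex to the central spindle, had 153, 153 and 148 CPM in acute libraries, against 205, 202 and 206 CPM in vehicle libraries, and 147, 147 and 151 CPM in repeat against 196, 199 and 195 CPM in recovery libraries. The groups did not overlap, and the log2 fold changes were -0.43 ± 0.022 and -0.41 ± 0.022 (edgeR adjusted p = 2.56e-15 and 8.17e-15). ECT2, the exchange factor that activates RHOA for the cytokinetic ring, had 143, 136 and 134 CPM in acute libraries, against 148, 153 and 149.6 CPM in vehicle libraries. In repeat libraries ECT2 had 138, 135 and 140.2 CPM, against 152, 148 and 155 CPM in recovery libraries. These pairs were also separate, by the smaller log2 amounts of -0.12 ± 0.026 and -0.14 ± 0.026, and neither was called by limma on log2(TPM + 0.1) (adjusted p = 0.189 and 0.1003) or with the length offset (adjusted p = 0.0997 and 0.054).

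The proliferation marker MKI67, which coats mitotic chromosomes, had 844, 843 and 848 CPM in acute libraries, against 965, 961 and 983 CPM in vehicle libraries. After the second pulse MKI67 had 813, 723 and 788 CPM in repeat libraries, against 1012, 992 and 981 CPM in recovery libraries. Both pairs were separate, and the repeat libraries were more spread than the other groups. The log2 fold changes were -0.20 ± 0.031 and -0.36 ± 0.031 (edgeR adjusted p = 5.19e-05 and 5.74e-08). TOP2A, the topoisomerase that untangles sister chromatids, had 471, 479 and 453 CPM in acute libraries, against 614, 628 and 619 CPM in vehicle libraries, and 470.2, 473 and 481 CPM in repeat against 629, 636 and 618 CPM in recovery libraries. Its 2 falls were nearly equal, at -0.41 ± 0.022 and -0.40 ± 0.022 (edgeR adjusted p = 5.00e-15 and 6.13e-15).

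**Figure D3:**
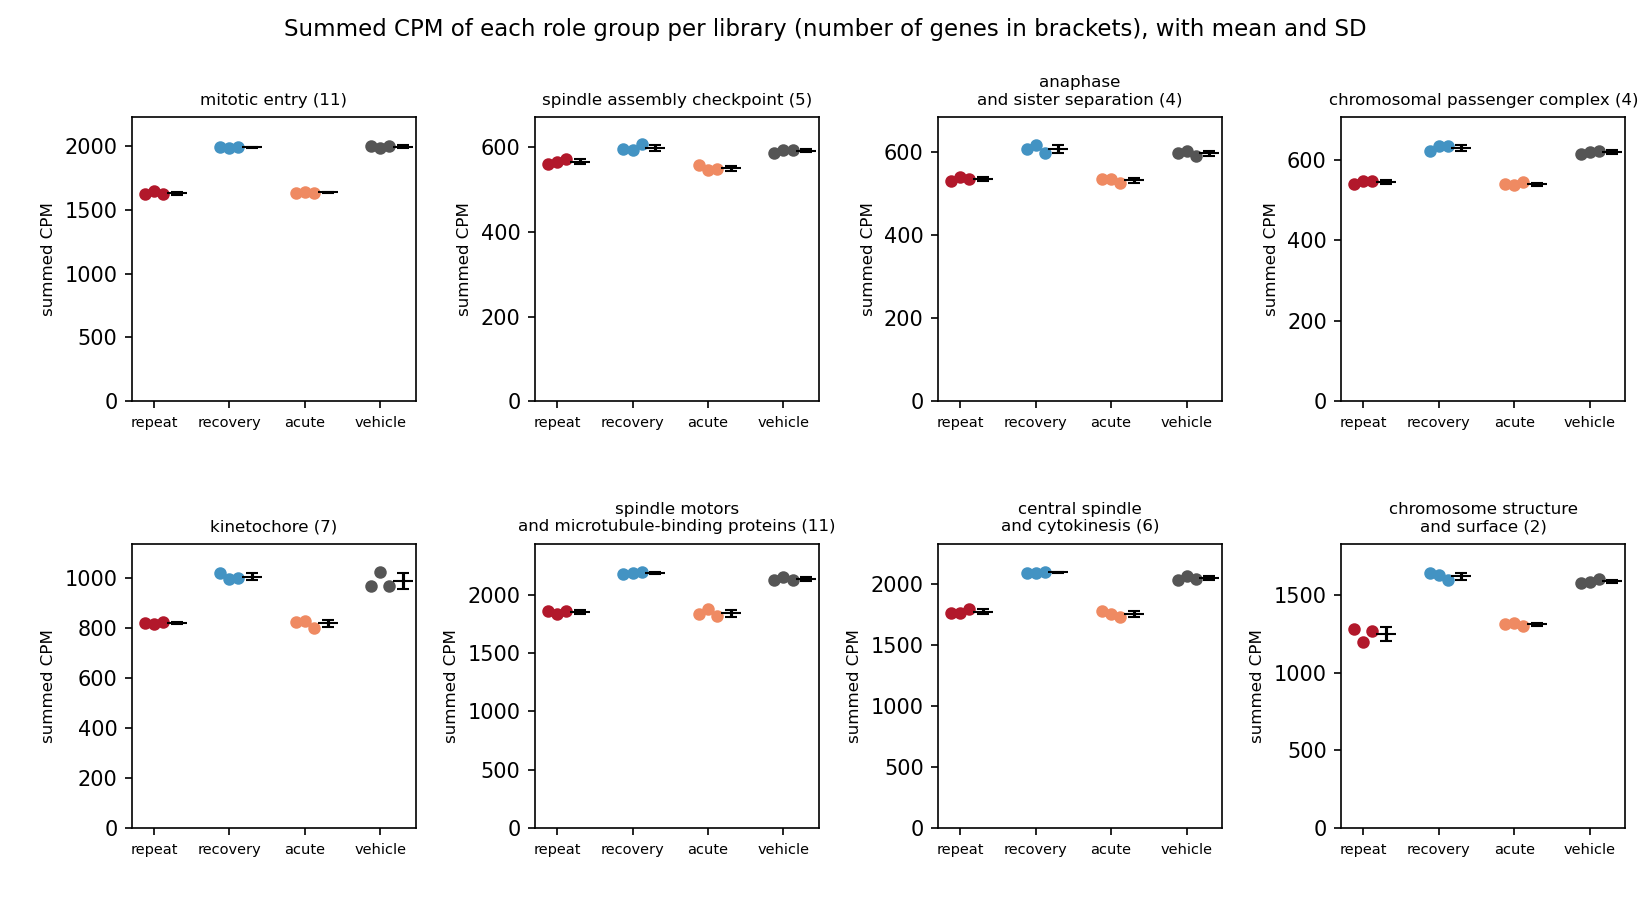
Summed CPM of the genes of each role per library (points), with the mean and SD of the 3 libraries of each group; axes start at 0. For the 11 genes of mitotic entry the repeat and acute libraries average 1629 and 1635 CPM, against 1988 and 1993 CPM in recovery and vehicle libraries, while the 5 checkpoint genes differ least.

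The levels of the 50 genes in recovery cells were close to those in vehicle cells. In recovery against acute cells 48 of the 50 rose and none fell, nor did any at an unadjusted p under 0.05 or with DESeq2 or limma, with a median log2 fold change of 0.23, against 20.4% of all genes called higher (edgeR). A rise beyond 1.2-fold was called for 12 genes, against 3.85% of all. TTK and ESPL1 did not pass. The calls of BUB1 and SPC25 were lost without recovery replicate 3 (BUB1, adjusted p = 0.0759) and without recovery replicate 1 or with DESeq2 (SPC25, adjusted p = 0.0662 and 0.0512). The acute libraries are shared by this comparison and the first, so the pair of counts is not independent.

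In recovery against vehicle cells 1 of the 50 genes was called higher and 0 were called lower by edgeR, against 3.03% and 2.91% of all genes. At an unadjusted p under 0.05, 8 genes differed in either direction, DESeq2 also called 1 gene higher and 0 lower, and limma on log2 TPM called 0. Of all genes, limma on log2(TPM + 0.1) called 81 higher and 44 lower, so its 0 among the 50 says little. The median log2 fold change of the 50 genes was 0.01 and the range ran from -0.09 (CENPA) to 0.17 (ASPM). For 37 of the 50 genes the 95% interval of the log2 difference lay within 0.1 of zero in both directions. The share of all genes was not taken for this count or for the 8 above, so neither can be called particular to these genes. The lowest bound of any of the 50 genes was -0.17 and the highest was 0.31. The gene called was ANLN, which had 923, 926 and 929 CPM in recovery libraries, against 861, 879 and 862 CPM in vehicle libraries. The ANLN groups did not overlap, and its log2 fold change was 0.09 ± 0.019 (edgeR adjusted p = 0.00172). On the log2 TPM scale it was 0.07 and was not called.

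The second pulse ended at levels close to those of the first. In repeat against acute cells 3 genes were called lower and 2 higher by edgeR, against 2.43% and 1.77% of all genes. PTTG1 was higher in repeat cells, with 104, 110.0 and 113 CPM, against 98.3, 101 and 98.5 CPM in acute libraries (0.14 ± 0.028, edgeR adjusted p = 0.00509). BIRC5 was higher by 0.08 ± 0.021 on the log2 scale (edgeR adjusted p = 0.036). The lower genes were MKI67, at -0.13 ± 0.031 on the log2 scale (edgeR adjusted p = 0.0328), ESPL1, at -0.11 ± 0.029 (adjusted p = 0.022), and CDC25B, at -0.08 ± 0.022 (adjusted p = 0.0353). All of these differences were smaller than the falls at the end of each pulse in the same genes, except for ESPL1. None of the 5 was called with limma on log2 TPM or with the length offset. Leaving out a single library left between 0 and 3 lower calls and between 1 and 5 higher calls, the 5 without repeat replicate 1. PTTG1 passed without each of the 12 libraries in turn. BIRC5 did not pass when any single acute library, repeat replicate 2 or repeat replicate 3 was left out (adjusted p from 0.0811 to 0.119). CDC25B did not pass when any single acute library, recovery replicate 1, repeat replicate 2 or repeat replicate 3 was left out (adjusted p from 0.0519 to 0.170). ESPL1 did not pass without acute replicate 2, acute replicate 3 or repeat replicate 2 (adjusted p from 0.0803 to 0.152). MKI67 did not pass when any single acute library, recovery replicate 2 or repeat replicate 3 was left out (adjusted p from 0.0503 to 0.0995).

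In repeat against vehicle cells 43 genes fell, against 22.9% of all genes called lower (edgeR), and 9 fell by more than 1.2-fold, against 6.54% of all. None rose, nor did any at an unadjusted p under 0.05 or with DESeq2 or limma on log2 TPM. The median log2 fold change was -0.18. The repeat libraries also enter the comparison with recovery.

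The 2 pulses were compared directly as repeat minus recovery less acute minus vehicle. No gene of the 50 was called in either direction by edgeR, against 0.43% of all genes called lower and 0.221% called higher. The smallest edgeR adjusted p was 0.137 (MKI67), and 6 genes had an unadjusted p under 0.05. The share of all genes at that unadjusted threshold was not taken. DESeq2 called 2 genes lower (MKI67 and ANLN) but gave no adjusted p for 6 of the 50. Limma on log2 TPM called none of the 50, and with log2(TPM + 0.1) it called 0 higher and 5 lower of all genes. MKI67 differed by -0.16 ± 0.044 on the log2 scale, and this value passed without repeat replicate 1 (-0.20, adjusted p = 0.00306) and with no filter on low counts. The 95% interval of the difference extended to 0.08 on either side for the median gene and to 0.19 for the widest, so the missing calls do not show that the pulses acted alike.

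Across the 50 genes the log2 fold changes of the 2 pulses, which share no library, had a Pearson correlation of 0.86 and a Spearman correlation of 0.867. These points share the scaling of the fit and their genes are not independent, so the correlation is a description. Of the 50 genes 42 were called lower in both pulses, 2 in the first alone (MAD2L1 and KIF18A), 1 in the second alone (PBK) and 5 in neither (BUB1, BUB3, TTK, ESPL1 and SPC25).

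**Figure D4:**
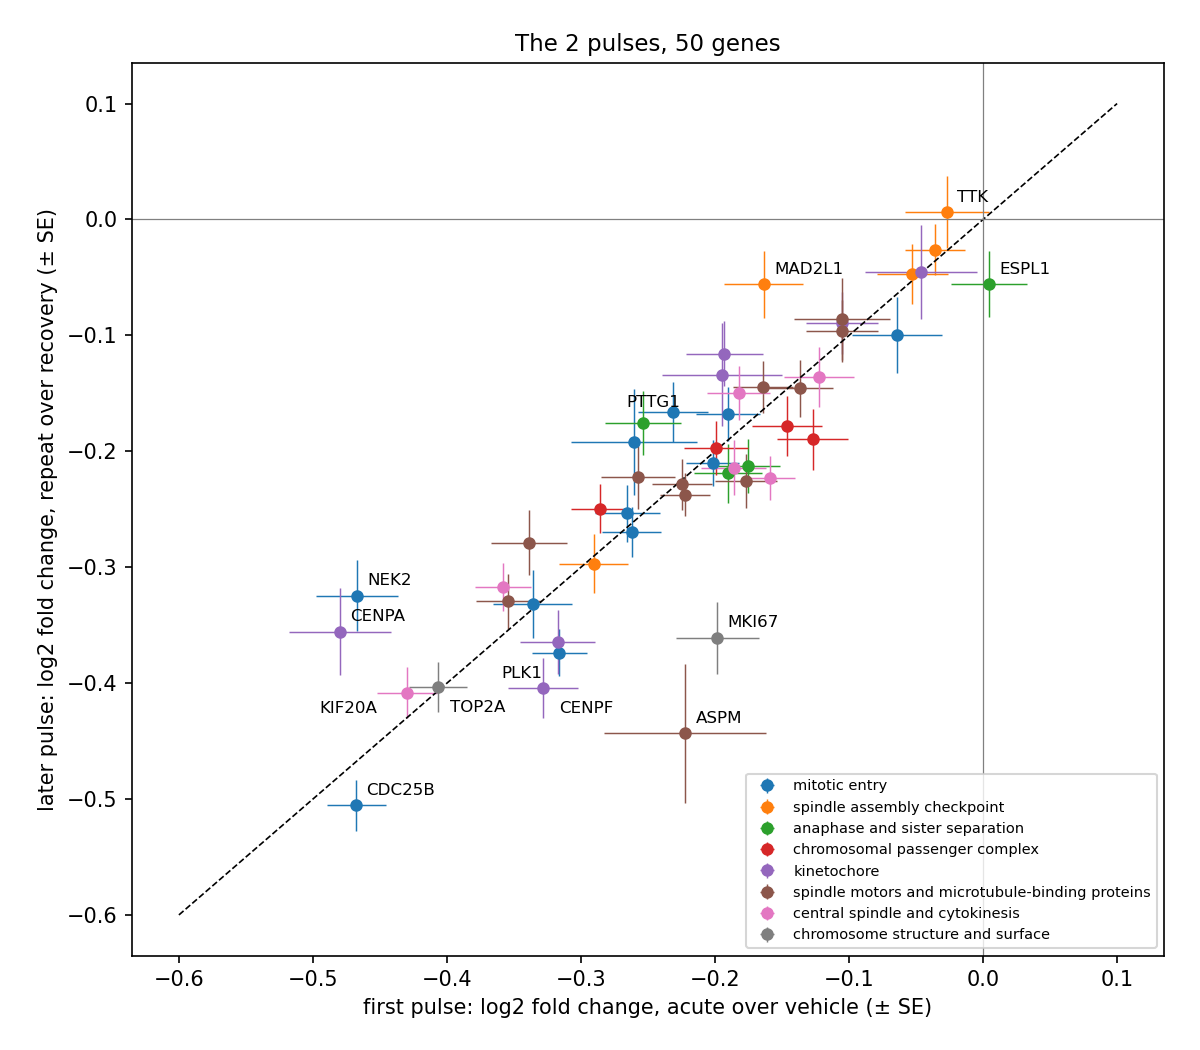
Log2 fold change of each of the 50 genes in the first pulse (horizontal, acute over vehicle) and the later pulse (vertical, repeat over recovery), with SE bars and colour by role; the dashed line marks equal values. Points follow the line from CDC25B at -0.47 and -0.51 to TTK at -0.03 and 0.01, with MKI67 and ASPM below it.

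Other cell cycle genes were described as lists beside the 50. The lists were chosen by symbol from known complexes, also with earlier results of these data known. Their counts are given beside the shares of all genes called in acute against vehicle cells, 21.5% lower and 22.3% higher. Of 30 other spindle, centrosome and cytokinesis genes, 22 fell and 2 rose, with a median log2 fold change of -0.17. GPSM2, which orients the spindle, and DEPDC1 fell the most, by 0.55 and 0.48, while STIL, a centriole duplication factor, and TRIP13 rose, at 0.16 and 0.13. Of 19 condensin and cohesin genes 13 fell and 2 rose, with a median of -0.16. NCAPD2, a condensin I subunit, had 366, 373 and 369 CPM in acute libraries, against 511, 508 and 509 CPM in vehicle libraries, a log2 fold change of -0.46 ± 0.020 (edgeR adjusted p = 4.02e-17). RAD21, of the cohesin ring, fell by 0.25. NCAPH2, of condensin II, and CDCA5, which stabilises cohesin on chromatin, rose, at 0.27 and 0.15. Of 30 other kinetochore and centromere genes 13 fell and 1 (MIS18A) rose, with a median of -0.07, and the largest falls were those of CENPI, at -0.47, and CENPM, at -0.30.

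Of 18 genes of the anaphase-promoting complex and its regulators 4 rose and 5 fell, with a median of 0.00, where the subunit ANAPC16 and the ubiquitin-conjugating enzyme UBE2S fell by 0.34 and 0.27, and the subunits ANAPC13 and CDC23 rose, at 0.21 and 0.16. Among 22 regulators of the MuvB, E2F and MYB families 4 rose and 9 fell, with a median of -0.01. TFDP2, a partner of E2F factors, changed by -0.66 and NFYB, a subunit of NF-Y, by -0.47, while the repressor E2F4 rose, at 0.22, and NFYC, another NF-Y subunit, rose, at 0.14.

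Of 17 listed inhibitors of cyclin-dependent kinases and other brakes on the cell cycle 16 were tested, 10 fell and 3 rose, with a median of -0.21. CDKN2B, the inhibitor p15 of CDK4 and CDK6, had 24.9, 23.6 and 24.2 CPM in acute libraries, against 61.1, 58.9 and 52.4 CPM in vehicle libraries, with no overlap. Its log2 fold change was -1.24 ± 0.059 (edgeR adjusted p = 1.29e-10). CCNG2 changed by -0.85, while the stress gene GADD45A rose, at 0.40, and PKMYT1, a kinase that inhibits CDK1, rose, at 0.14.

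Of 51 genes of G1/S and DNA replication 50 were tested, of which 14 rose and 17 fell, with a median of 0.00. Cyclin D1 (CCND1), which drives G1, had 462, 459.7 and 484 CPM in acute libraries, against 250.3, 267 and 281 CPM in vehicle libraries. The groups were separate, with a log2 fold change of 0.82 ± 0.037 (edgeR adjusted p = 5.39e-10). The replication factor GINS4 fell by 0.53, and cyclin E1 (CCNE1), which drives entry into S phase, rose, at 0.60. In repeat against recovery cells the list medians lay between -0.18 for the other spindle genes and 0.01 for G1/S genes, and 23 of 30 other spindle genes, 10 of 19 condensin and cohesin genes and 9 of 16 brakes fell, against 20.5% of all genes.

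**Figure D5:**
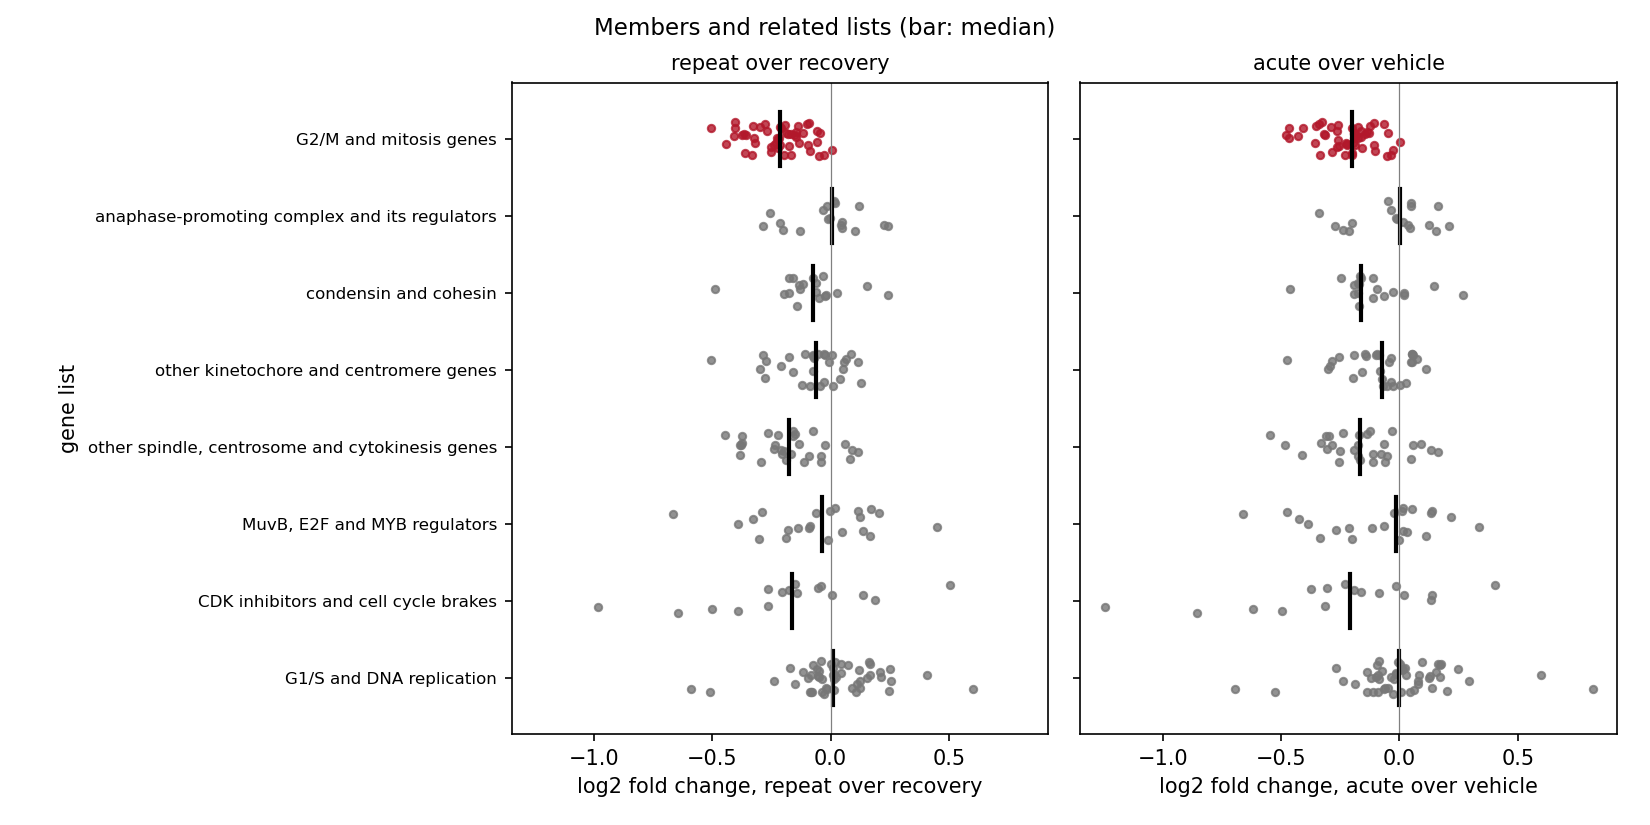
Log2 fold change of each gene (points, one row per list, spread vertically only for visibility) in repeat over recovery cells (left) and acute over vehicle cells (right), with the median of each list as a bar. The 50 genes, in red, lie below zero or within 0.01 of it, with medians of -0.21 and -0.20, while the G1/S and anaphase-promoting complex lists are centred near 0.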

How the data were processed

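RNA of 12 AC16 samples, 3 in each of 4 regimens, was sequenced. By the labels' protocols, reads were single, of 75 bases, from stranded polyadenylated libraries. The submitters' processing notes list the aligner STAR 2.7.11a, the counter featureCounts 2.0.3, the trimmers Trim Galore 0.6.10 and cutadapt 4.3, edgeR, and Picard 2.27.5 with the build GRCh38.p13; the series text names DESeq2 in place of edgeR. Whether counting used strand is not given in the sources used here, so reads of overlapping and antisense genes may be included.

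The authors deposited an estimated count per gene and library, and a TPM value per gene and library. Of the nonzero count values 25.5% were not whole numbers, 16 of the 50 genes held at least 1 such value, and all were rounded before testing. The deposited TPM values summed to 1000000 per library. Library totals of 39941319 to 62281900 counts gave a common biological coefficient of variation of 2.67% between replicates. Whether replicates came from separate cultures is stated only as independent replicates, and p-values measure the spread between these libraries.

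From the counts, genes were kept with edgeR's filterByExpr (18119 genes), scaled by TMM and fitted over all 4 groups with edgeR 4.0.16 (R 4.3.3, robust quasi-likelihood). All comparisons came from that fit, with Benjamini-Hochberg adjustment over all genes tested, a threshold of 0.05, and glmTreat for changes beyond 1.2-fold. CPM used TMM-scaled library sizes. Standard errors and 95% intervals are those of the fit. Alternatives were DESeq2 1.42.0, other scalings, no filter on low counts, limma 3.58.1 on log2(TPM + 0.1) and log2(TPM + 1), a gene length offset taken from counts and TPM, a block for the replicate number, only the 2 groups compared, and leaving out each library. The fit was also run on simulated counts with the same biological coefficient of variation for every gene and few changed genes. No result here rests on that run. Gene symbols were those of GENCODE release 44 (GRCh38), and promoter sequences from RefSeq on GRCh38.p14.

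The 50 genes, the other gene lists and the tests were chosen with earlier results of these data known. The rule for naming genes gave values in every library for 14 genes known in each role. In each comparison it named the member with the largest change in each direction, members called against the majority and, where few, those that did not pass. The rule was not applied to the largest rise in recovery against acute cells. Nor was it applied to repeat against vehicle cells or to the largest values of the difference between pulses. Of each other list the rule named the largest changes in each direction. One gene of the G1/S list that this rule named is not reported here. No outlier test applies to groups of 3 libraries.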

Additional observations from a re-analysis of the deposited data

How the results depend on the processing

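No gene of the 50 was called higher in acute against vehicle or in repeat against recovery cells in the alternatives. These were DESeq2 size factors, upper quartile scaling, the DESeq2 test, log2 TPM, the length offset, no count filter and each library left out. The estimates of MAD2L1 and CENPE, called lower in the main fit, changed sign in some of them, as given below. On the TPM scales and with the length offset fewer were called: 32 and 35 lower in acute against vehicle cells (44 on counts), 32 and 35 lower in repeat against recovery cells (43), 34 and 37 higher in recovery against acute cells (48), and 31 and 33 lower in repeat against vehicle cells (43). Fewer of all genes were called there too. In acute against vehicle cells 1801 were lower with log2(TPM + 0.1) and 2142 with the length offset (3889 on counts). The cause was not tested. In recovery against vehicle cells the count of higher genes, 1, became 2 without the count filter and 2 with only these groups in the fit, and 0 with log2(TPM + 0.1), log2(TPM + 1) and the length offset. Of all genes, 81 were called higher there with log2(TPM + 0.1) and 107 with the length offset, against 549 on counts. In repeat against acute cells the 2 higher genes became 0 on both TPM scales and with the length offset, 1 with only these groups, and between 1 and 5 with 1 library left out. The 3 lower genes became 0 on both TPM scales, with the length offset and with only these groups, and between 0 and 3 with 1 library left out. In this comparison log2(TPM + 0.1) called 3 of all genes higher and 6 lower, and the length offset 5 and 5. For the difference between pulses the 0 lower genes became 2 with DESeq2, which gave no adjusted p for 6 of the 50. They became 1 without the count filter, and between 0 and 1 with 1 library left out. On the TPM scales, CENPE in repeat against recovery cells was 0.0463 and 0.0456, and 0.0382 with the length offset. CENPE in repeat against vehicle cells was 4e-04 and 2e-04, and MAD2L1 in acute against vehicle cells was 0.0044 on both. The cause of these reversals was not tested. In recovery against acute cells log2(TPM + 0.1) called 1520 of all genes higher and 2323 lower, against 3696 and 3752 by edgeR on counts.

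The main fit did not pair libraries by replicate number. Same-numbered libraries had correlations of their deviations between -0.082 and 0.076, and differently numbered ones between -0.103 and 0.107. Between vehicle and acute libraries the same-numbered values were 0.057, 0.076 and 0.055, and the others ran from -0.05 to -0.004. Between recovery and repeat libraries the same-numbered values were -0.006, -0.082 and 0.03. With the replicate block, 44 genes were lower in acute against vehicle cells and 42 in repeat against recovery cells, against 44 and 43 without it; the call lost was that of CENPE (-0.13, adjusted p = 0.0622).

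The number of libraries limits the precision of small changes. Cell number, cell cycle phase and protein were not analysed here, and no vehicle library is labelled with a later time.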
